A study of Homo sapiens with 9 samples.

Results

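The genes of glycolysis and of the response to low oxygen were examined in KG-1a cells with and without intact PRMT2. The 44 genes came from a fixed list of symbols, matched in the symbol column of the authors' deposited table, and all 44 were found among 60605 gene identifiers. They fall into 19 glucose transporters and glycolytic enzymes, 5 regulators of glycolytic and pyruvate flux, 6 genes of the hypoxia-inducible factors (HIF) and of oxygen sensing, and 14 other genes known to be induced by HIF. Of these, 42 passed the filter on low counts and were tested, and the prolyl hydroxylase gene EGLN3 and the carbonic anhydrase gene CA12 did not pass it. KG-1a is a human acute myeloid leukaemia line of immature, CD34-positive cells, and PRMT2 is a protein arginine methyltransferase. The control group was PRMT2 wild-type KG-1a (WT), and the other groups were PRMT2 knockout clone 1 and PRMT2 knockout clone 2, each derived with CRISPR/Cas9, with 3 libraries per group. The medium for all groups was RPMI 1640, to which 20% serum was added, and the cells were kept under 5% CO2. The labels name no drug and no culture at low oxygen for any group.

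Glycolysis splits glucose into pyruvate through a chain of cytosolic enzymes, and lactate dehydrogenase then turns pyruvate into lactate. HIF is a dimer of an oxygen-regulated alpha subunit, HIF-1 alpha (HIF1A) or HIF-2 alpha (EPAS1), and the stable subunit ARNT. In normal oxygen, prolyl hydroxylases (EGLN genes) mark the alpha subunit, and the VHL ubiquitin ligase complex removes it, so HIF activity is set largely at the level of the protein. When stabilised, HIF induces glucose transporters, most glycolytic enzymes, VEGFA and many other genes through short DNA elements with the core ACGTG or GCGTG. RNA levels of the subunits therefore do not report HIF activity directly.

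Each clone stands for 1 cloned line, and whether replicates were separate cultures is not stated in the labels, so the p-values below measure the spread between these libraries, which may be technical, and not the spread between clones. Counted read pairs were between 28006342 and 43149410 per library. PRMT2 RNA was at 39.0 to 39.8 CPM (counts scaled to a common library total) in WT and at 20.2 to 21.4 CPM in the 6 knockout libraries, so the RNA was reduced and still present. All 5 KG-1a identity markers listed were expressed. In clone 1 and clone 2, CD34 (626 CPM in WT) stood at 117% and 122% of WT, ERG (92.5 CPM) at 155% and 123%, and LYL1 (139 CPM) at 146% and 131%, all higher at the adjusted p. PTPRC (591 CPM) was lower, at 91.8% and 88.1%, and SPN (CD43, 913 CPM) passed in neither clone. The part of these marker changes in the results below was not tested. The defining markers of epithelial cells (EPCAM, CDH1, KRT19) and of red cells (HBB, HBA1, HBG1) were at or near 0 in every group, and the most abundant fibroblast marker, COL1A1, was at 0.288 to 0.436 CPM in the group means. KO clone 1 replicate 1 stood apart, where multimapping pairs made up 13.3% of the library, and 3.86% to 4.51% of the other 8. In bulk RNA, fewer cells that express a gene and less RNA per cell cannot be told apart.

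In both clones EPAS1 and VEGFA fell, PFKFB4 rose, and 6 glycolytic enzymes fell by small amounts. Of these 6, HK1, PFKL, TPI1, PGK1 and LDHA were lower in clone 1 than in clone 2, and GPI was lower in clone 2. With edgeR's quasi-likelihood test at a Benjamini-Hochberg adjusted p under 0.05, 29 of the 42 tested members passed in clone 1 against WT, 8 higher and 21 lower, where 36.2% of all 20655 genes tested passed, 17.4% higher and 18.8% lower. In clone 2 against WT, 24 passed, 8 higher and 16 lower, against 30.5% of all genes, 14.4% higher and 16.1% lower. For the mean of both clones against WT, 26 passed, 7 higher and 19 lower, against 35.3%, 16.4% and 18.9% of all genes. Abundant genes are measured more precisely and pass more often. Among genes at 50 CPM or more, a level chosen after the values were seen, 54.6% passed in clone 1 (29.4% higher, 25.1% lower). In clone 2 this share was 49.5% (30.5% higher, 19.0% lower), and in the mean of both clones 53.8% (31.1% higher, 22.7% lower). Of the 26 members at that level, 3 were higher and 18 lower in clone 1, 4 higher and 11 lower in clone 2, and 3 higher and 16 lower in the mean.

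Most of these differences were small. A log2 fold change of at least 1, the minimum that the series text states, was reached by 3 members in clone 1 (EPAS1 lower, PFKFB4 and CA9 higher), beside 7.58% of all genes, 2.60% higher and 4.98% lower. It was reached by 2 in clone 2 (EPAS1 lower, CA9 higher), beside 5.96% of all genes, 1.83% higher and 4.13% lower, and by the same 2 in the mean of both clones, beside 6.53%, 2.00% higher and 4.53% lower. The median log2 fold change of the tested members was -0.14 in clone 1 and -0.06 in clone 2, beside 0.0013 and -0.00013 over all genes. In both clones and in the same direction, 18 members passed (19.6% of all genes), 13 of them lower (11.0%) and 5 higher (8.52%), and 3 passed in opposite directions (1.35%). All 6 knockout libraries lay outside the WT range for 18 members (24.9% of all genes), below it for 13 (13.7%) and above it for 5 (11.2%). The same WT libraries serve both comparisons.

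**Figure D1:**
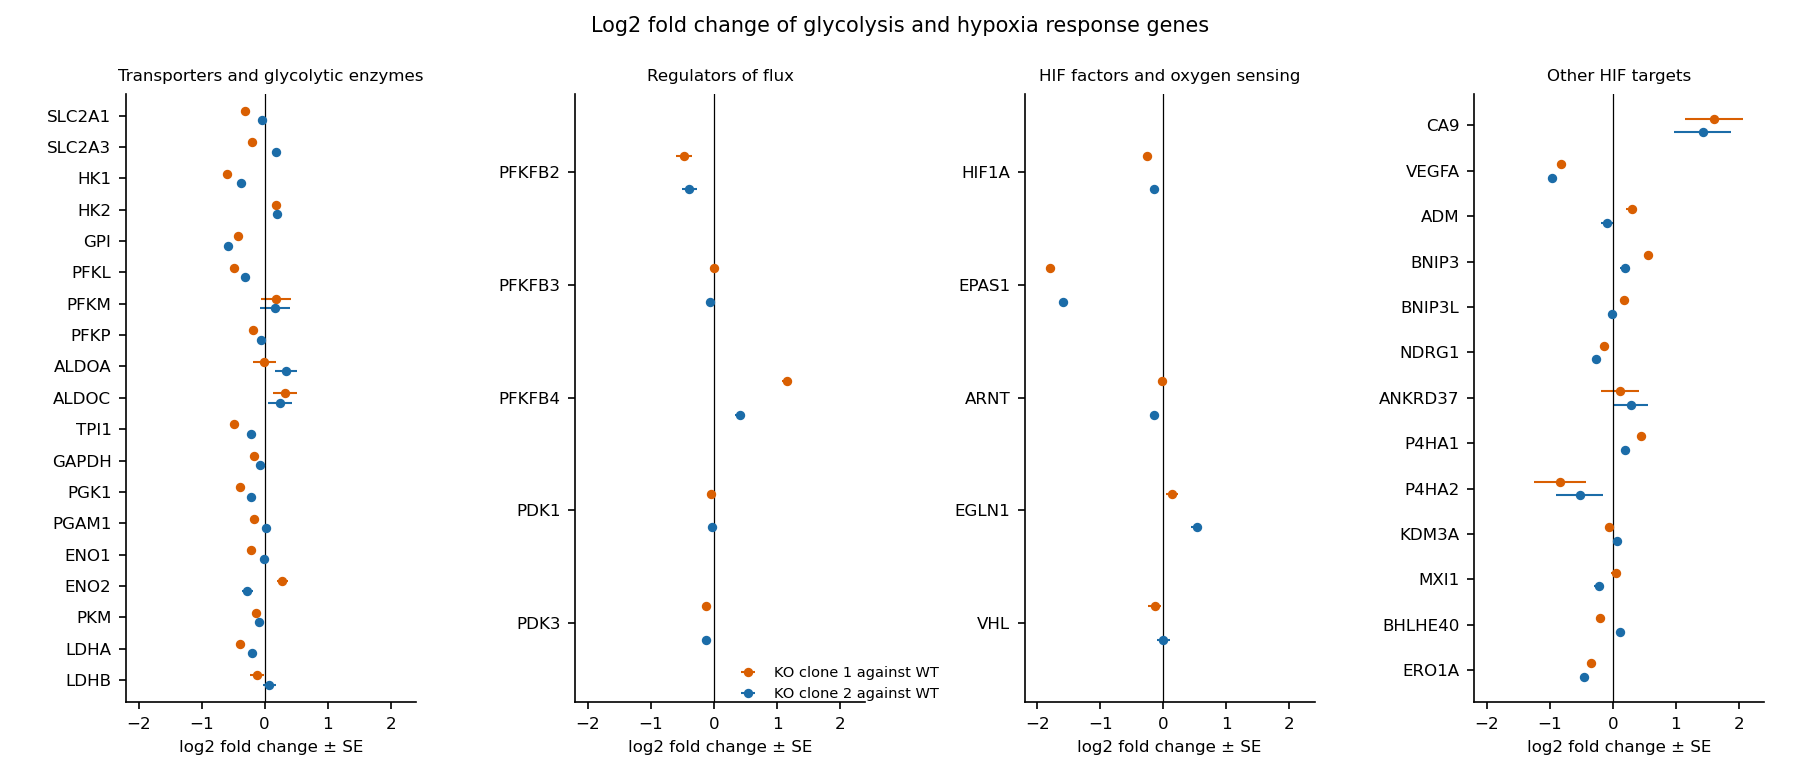
Log2 fold change against WT (x axis) with its standard error for the 42 tested members, in 4 panels by role, with KO clone 1 in orange and KO clone 2 in blue. EPAS1 lies at -1.80 and -1.60, VEGFA at -0.81 and -0.96 and PFKFB4 at 1.16 and 0.41, while the enzymes lie between -0.60 and 0.34.

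Among the HIF factors, EPAS1 fell about as much in both clones, whereas HIF1A fell slightly in both. ARNT fell slightly in clone 2 only, and VHL passed in neither clone. EPAS1 (ENSG00000116016, GRCh38 chromosome 2, 46293667 to 46386697, plus strand), which encodes HIF-2 alpha, was at 62.9, 56.0 and 61.4 CPM in the WT libraries, at 17.6, 16.6 and 17.4 CPM in clone 1, and at 20.2, 18.3 and 21.0 CPM in clone 2. All 6 knockout libraries were far below the lowest WT library. Clone 1 kept 28.6% and clone 2 kept 33.0% of the WT level. In log2 units, EPAS1 decreased by 1.80 in clone 1 (SE 0.059, adjusted p = 8.76e-27, edgeR) and decreased by 1.60 in clone 2 (SE 0.056, adjusted p = 1.55e-25, edgeR). In the authors' deposited table, which compares both clones together with WT, it was -1.68. The clones differed by 0.21 (SE 0.063, adjusted p = 0.0113), with clone 1 lower. That difference did not pass without KO clone 1 replicate 2 (adjusted p = 0.0571) or without KO clone 2 replicate 3 (adjusted p = 0.0928).

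HIF1A (ENSG00000100644, chromosome 14, 61695513 to 61748259, plus strand), the most abundant gene of this group, was at 214, 215 and 221 CPM in WT, at 185, 175 and 182 CPM in clone 1, and at 199, 190 and 197 CPM in clone 2. Every knockout library was below every WT library, and the groups were close together. HIF1A fell by 0.26 in clone 1 (SE 0.030, adjusted p = 1.5e-09) and by 0.15 in clone 2 (SE 0.030, adjusted p = 9.68e-05). Per kilobase of annotated exon, the WT level was 42.0 CPM for HIF1A and 8.24 CPM for EPAS1. In the clones EPAS1 was at 2.36 and 2.72 CPM per kilobase.

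ARNT, the shared partner of both alpha subunits, was at 68.2 ± 2.34 CPM in WT, 67.2 ± 2.31 in clone 1 and 61.5 ± 3.32 in clone 2 (SD, n = 3 libraries each). It did not pass in clone 1 (log2 fold change -0.02, adjusted p = 0.756) and fell by 0.15 in clone 2 (adjusted p = 0.0051, edgeR), a call lost without KO clone 2 replicate 2 (adjusted p = 0.0648). VHL, the substrate receptor of the ubiquitin ligase, was at 163 ± 7.82, 148 ± 19.4 and 163 ± 10.4 CPM and passed in neither clone, with log2 fold changes of -0.14 and -0.0034. EGLN1, the main prolyl hydroxylase, was at 8.15 ± 0.279 CPM in WT, 8.97 ± 0.993 in clone 1 and 11.8 ± 0.50 in clone 2. It rose in clone 2 (0.53, SE 0.089, adjusted p = 6.57e-06) and did not pass in clone 1 (0.14, adjusted p = 0.277). The level of EGLN1 is undercounted, because 55.8% of its exonic bases also belong to another gene model on the same strand, and read pairs in shared exons are not assigned. EGLN3 had 5, 4 and 1 counts in WT, clone 1 and clone 2, too few to compare.

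**Figure D2:**
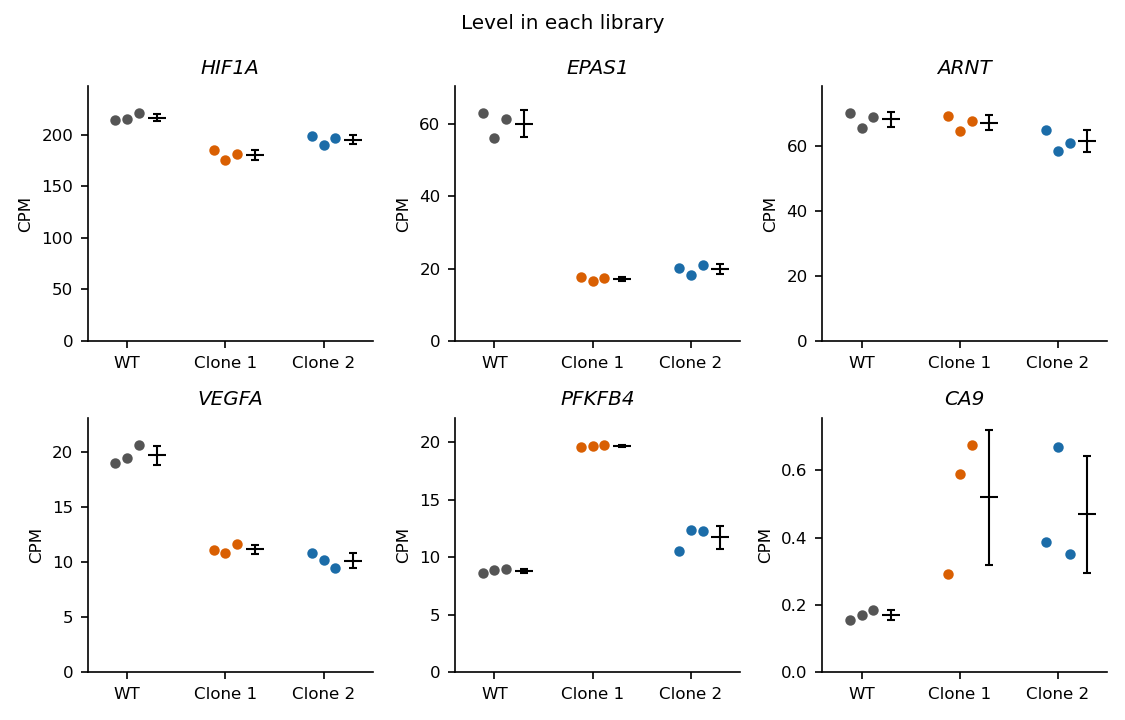
Level in CPM (y axis, from 0) of 6 genes in each library, as points by group, with the mean and SD (n = 3) beside them in black. EPAS1 drops from 56.0 to 62.9 CPM in WT to 16.6 to 21.0 CPM in the knockout libraries, VEGFA from 19.0 to 20.6 to 9.47 to 11.6, and PFKFB4 is highest in clone 1, whereas HIF1A and ARNT move little.

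The glucose transporters SLC2A1 (GLUT1) and SLC2A3 (GLUT3), which bring glucose into the cell, were lower in clone 1 and not in clone 2. SLC2A1 fell by 0.31 in clone 1 (adjusted p = 1e-08) and did not pass in clone 2 (-0.04, adjusted p = 0.504), going from 82.4 ± 2.28 CPM in WT to 66.3 ± 1.06 and 80.2 ± 3.32. SLC2A3 fell by 0.21 in clone 1 (adjusted p = 5.47e-06) and rose by 0.17 in clone 2 (adjusted p = 6.96e-05), from 124 ± 3.76 CPM to 108 ± 4.79 and 140 ± 1.87. SLC2A3 thus moved in opposite directions, a difference between the clones of 0.38 (SE 0.035, adjusted p = 1.1e-11).

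Of the 19 transporters and enzymes, 13 were lower and 2 were higher in clone 1, beside 18.8% lower and 17.4% higher of all genes. In clone 2, 7 were lower and 2 were higher, beside 16.1% and 14.4%. Of the 14 at 50 CPM or more, 13 were lower in clone 1 and 6 in clone 2, beside 25.1% and 19.0% of all genes at that level. Lower in both clones, as were 11.0% of all genes, were 6 genes, HK1, GPI, PFKL, TPI1, PGK1 and LDHA, and 1 gene, HK2, was higher in both. The median log2 fold change of the 19 was -0.19 in clone 1 and -0.06 in clone 2. Their summed level was 10058.5 ± 314.7 CPM in WT, 8505.7 ± 20.0 in clone 1 and 9280.1 ± 94.9 in clone 2, and the knockout libraries all lay below the lowest WT library at 9695.2. GAPDH, which did not pass in clone 2, made up 3981, 3551 and 3794 CPM of these sums. They therefore weigh heavily on this gene and do not describe the transporters and enzymes as a set.

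HK1 (ENSG00000156515, chromosome 10, 69269984 to 69401884, plus strand) encodes the hexokinase that traps glucose as glucose 6-phosphate in most tissues. It was at 115, 111 and 110 CPM in WT, at 71.0, 73.1 and 76.4 CPM in clone 1, and at 87.7, 85.6 and 86.0 CPM in clone 2. The 3 groups did not overlap, and clone 1 was the lowest. HK1 fell by 0.60 in clone 1 (SE 0.036, adjusted p = 9.41e-18) and by 0.37 in clone 2 (SE 0.035, adjusted p = 1.45e-11). HK2, the inducible hexokinase, rose by 0.19 in both clones, from 113 ± 1.59 CPM to 129 ± 4.19 and 129 ± 3.88 (adjusted p = 1.76e-05 and 9.54e-06, edgeR).

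GPI (ENSG00000105220, chromosome 19, 34359480 to 34402413, plus strand), the isomerase of the next step, was at 682, 640 and 688 CPM in WT, at 509, 503 and 492 CPM in clone 1, and at 452, 439 and 449 CPM in clone 2. The groups did not overlap, and clone 2 was the lowest, whereas HK1 was lowest in clone 1. GPI fell by 0.42 in clone 1 (SE 0.037, adjusted p = 2.01e-12) and by 0.58 in clone 2 (SE 0.037, adjusted p = 1.01e-16).

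Of the phosphofructokinase genes, which commit sugar to glycolysis, the liver-type PFKL fell by 0.48 in clone 1 (adjusted p = 3.96e-15) and by 0.31 in clone 2 (adjusted p = 8.14e-10), from 163 ± 8.64 CPM to 117 ± 3.07 and 132 ± 3.21. The platelet-type PFKP fell by 0.19 in clone 1 (adjusted p = 2.7e-06) and did not pass in clone 2 (-0.06, adjusted p = 0.13). The muscle-type PFKM was low, at 1.06 CPM in WT, and passed in neither clone. Aldolase was not well measured. ALDOA was listed at 31.5 ± 7.05 CPM in WT, but 42.8% of its exonic bases belong to a second gene model on the same strand, and its brain-type relative ALDOC was at 1.52 CPM. Neither passed in a clone.

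TPI1, which interconverts the 3-carbon sugars, fell by 0.48 and 0.22, from 411 ± 11.2 CPM to 294 ± 3.59 and 353 ± 12.8 (adjusted p = 7.97e-15 and 3.82e-06, edgeR). PGK1, the first step that yields ATP, fell by 0.39 and 0.21, from 624 ± 12.7 CPM to 475 ± 17.9 and 539 ± 16.0 (adjusted p = 1.89e-11 and 2.03e-05, edgeR). LDHA, which makes lactate, fell by 0.39 and 0.20, from 1094 ± 20.8 CPM to 836 ± 17.1 and 954 ± 13.3 (adjusted p = 1.03e-11 and 3.33e-05, edgeR). In all 3 genes both clones lay below WT without overlap, with clone 1 the lower.

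GAPDH (ENSG00000111640, chromosome 12, 6534512 to 6538374, plus strand), the dehydrogenase often used as a reference transcript, was the most abundant member. It was at 4096, 3782 and 4065 CPM in WT, at 3588, 3474 and 3591 CPM in clone 1, and at 3847, 3724 and 3811 CPM in clone 2. Clone 1 lay below WT, and clone 2 overlapped it. GAPDH fell by 0.17 in clone 1 (SE 0.034, adjusted p = 0.000106) and did not pass in clone 2 (-0.07, SE 0.034, adjusted p = 0.123). PGAM1, ENO1 and PKM, the last steps to pyruvate, fell by 0.17, 0.22 and 0.14 in clone 1 (adjusted p = 8.26e-05, 4.83e-06 and 0.00337, edgeR) and lay at 0.01, -0.02 and -0.09 in clone 2, where none passed. Clone 2 overlapped WT in PGAM1 and ENO1, whereas in PKM all 6 knockout libraries lay below WT and the clones did not differ at the adjusted p (0.05, adjusted p = 0.375). LDHB was at only 6.96 CPM in WT against 1094 CPM for LDHA, and passed in neither clone. With 33.4% of its exonic bases shared with another gene model on the same strand, LDHB may be undercounted.

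**Figure D3:**
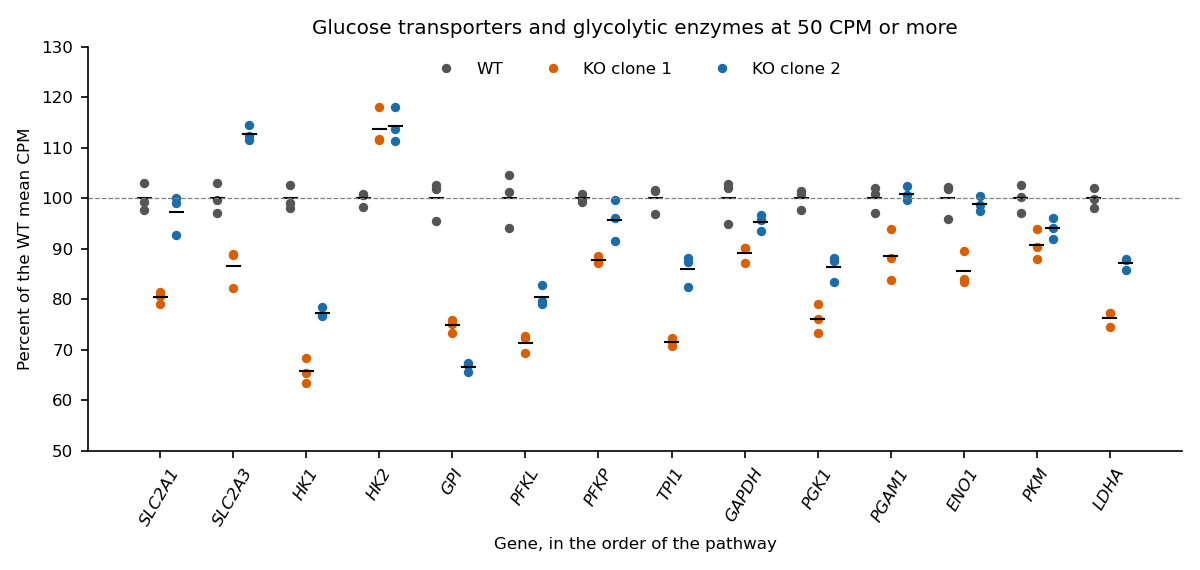
Level of the 14 transporters and enzymes at 50 CPM or more in each library, as percent of the WT mean (y axis, from 50 to 130), in the order of the pathway; black bars are group means. Clone 1 lies below WT at 13 of the 14 genes, HK1 is lowest at 65.8% of WT, and HK2 lies above WT in both clones at 114%.

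ENO2 (ENSG00000111674, chromosome 12, 6913745 to 6923698, plus strand), the neuronal enolase, went opposite ways in the clones. It was at 10.7, 9.73 and 10.1 CPM in WT, at 11.5, 13.2 and 12.3 CPM in clone 1, and at 7.93, 8.49 and 8.77 CPM in clone 2. Clone 1 was above WT and clone 2 below it, without overlap. ENO2 rose by 0.28 in clone 1 (adjusted p = 0.00958) and fell by 0.28 in clone 2 (adjusted p = 0.0121). The first call was lost without WT replicate 2 or KO clone 1 replicate 2 (highest adjusted p 0.0737), and the second without WT replicate 1 or KO clone 2 replicate 1 (highest adjusted p 0.074). The difference between the clones, -0.56 (SE 0.087, adjusted p = 2.99e-06), held without each library in turn.

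Single enzymes also differed between the clones. In clone 2 against clone 1, 11 of the 19 transporters and enzymes were higher and 2, GPI and ENO2, were lower, where 25.9% of all genes passed, 13.4% higher and 12.6% lower. Over all members, 16 were higher and 11 lower in clone 2, and of the 26 members at 50 CPM or more 14 were higher and 6 lower, where 46.1% of genes at that level passed, 27.1% higher and 19.0% lower. No member reached the fold minimum between the clones with edgeR, with or without adjustment of p, or with DESeq2, and the largest difference was 0.75 in absolute value, where 2.82% of all genes passed that minimum, 1.58% higher and 1.23% lower.

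The regulators of flux contained the largest rise among members above 1 CPM in WT. PFKFB4 (ENSG00000114268, chromosome 3, 48517684 to 48562015, minus strand) makes and removes fructose 2,6-bisphosphate, the allosteric activator of phosphofructokinase. It was at 8.61, 8.87 and 8.97 CPM in WT, at 19.6, 19.6 and 19.8 CPM in clone 1, and at 10.5, 12.3 and 12.3 CPM in clone 2. The groups did not overlap, and clone 1 stood clear of the others. PFKFB4 rose by 1.16 in clone 1 (SE 0.079, adjusted p = 6.7e-16) and by 0.41 in clone 2 (SE 0.081, adjusted p = 7.85e-05). The clones differed by -0.75 (SE 0.076, adjusted p = 2.45e-10).

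PFKFB2 (ENSG00000123836, chromosome 1, 207034366 to 207081024, plus strand), a second gene of this enzyme family, went the other way. It was at 5.29, 4.90 and 4.87 CPM in WT, at 3.73, 3.29 and 3.84 CPM in clone 1, and at 4.0, 3.95 and 3.55 CPM in clone 2. All knockout libraries lay below WT, and the clones overlapped each other. It fell by 0.47 in clone 1 (SE 0.126, adjusted p = 0.00252) and by 0.39 in clone 2 (SE 0.121, adjusted p = 0.0109), the latter lost without WT replicate 1 or KO clone 2 replicate 3 (highest adjusted p 0.0694). PFKFB3, the most abundant member of the family at 59.4 ± 0.443 CPM in WT, passed in neither clone (-0.0069 and -0.06).

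The pyruvate dehydrogenase kinases PDK1 and PDK3 changed little. PDK1 (ENSG00000152256, chromosome 2, 172555373 to 172608669, plus strand), the most abundant gene of this group, was at 97.8, 101 and 98.5 CPM in WT, at 91.3, 100 and 97.8 CPM in clone 1, and at 97.6, 98.9 and 96.2 CPM in clone 2, with all groups overlapping. It passed in neither clone (-0.04, adjusted p = 0.412, and -0.02, adjusted p = 0.663). PDK3 fell by 0.13 in both clones (adjusted p = 0.0107 and 0.0092, edgeR), and both calls were lost without WT replicate 3 (adjusted p = 0.142 and 0.133), the first also without KO clone 1 replicate 1.

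Of the 13 other HIF targets tested, 5 were higher and 4 lower in clone 1, beside 17.4% and 18.8% of all genes. In clone 2, 4 were higher and 4 lower, beside 14.4% and 16.1%. The log2 fold changes had a median of 0.05 in clone 1 and -0.0077 in clone 2. With counts that disregard strand, where CA9 was not tested, the medians were -0.08 and -0.05. The summed level of these targets was 753.9 ± 16.9 CPM in WT, 736.5 ± 4.2 in clone 1 and 700.0 ± 6.6 in clone 2. ERO1A, the most abundant of them in WT, made up 191.9, 151.1 and 140.0 CPM of these sums. The sums therefore weigh heavily on this gene and do not describe the targets as a set. At the adjusted p, VEGFA, ERO1A and NDRG1 fell in both clones, and CA9, BNIP3 and P4HA1 rose in both. The clone 2 calls of CA9 and BNIP3 were lost under alternatives given below.

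VEGFA (ENSG00000112715, chromosome 6, 43770184 to 43786487, plus strand), the main angiogenic growth factor, was at 19.0, 19.5 and 20.6 CPM in WT, at 11.1, 10.8 and 11.6 CPM in clone 1, and at 10.8, 10.2 and 9.47 CPM in clone 2. The lowest WT library was well above all 6 knockout libraries, and the highest clone 2 library was just under the lowest of clone 1. Clone 1 kept 56.8% and clone 2 kept 51.5% of the WT level. VEGFA fell by 0.81 in clone 1 (SE 0.077, adjusted p = 9.06e-12) and by 0.96 in clone 2 (SE 0.075, adjusted p = 6.3e-14), just short of the fold minimum. The difference between the clones did not pass (-0.14, SE 0.080, adjusted p = 0.21).

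ERO1A (ENSG00000197930, chromosome 14, 52639915 to 52695900, minus strand), an oxidase that forms disulfide bonds in the endoplasmic reticulum, was at 189, 190 and 196 CPM in WT, at 148, 152 and 153 CPM in clone 1, and at 138, 142 and 140 CPM in clone 2. The groups did not overlap. ERO1A fell by 0.34 in clone 1 (SE 0.030, adjusted p = 1.4e-12) and by 0.46 in clone 2 (SE 0.030, adjusted p = 3.26e-16). The stress-responsive gene NDRG1 fell by 0.14 and 0.27, from 76.1 ± 2.58 CPM to 69.0 ± 1.29 and 63.2 ± 1.70 (adjusted p = 0.00412 and 3.65e-07, edgeR).

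P4HA1, a collagen prolyl hydroxylase, rose by 0.46 and 0.19, from 65.6 ± 2.38 CPM to 90.0 ± 2.64 and 75.1 ± 0.293 (adjusted p = 2.9e-13 and 7.05e-05, edgeR). BNIP3, a mitophagy receptor, rose by 0.57 in clone 1 (adjusted p = 1.77e-08) and by 0.19 in clone 2 (adjusted p = 0.0394), from 14.0 ± 0.702 CPM to 20.7 ± 1.70 and 16.0 ± 0.465. With counts that disregard strand, the rise of BNIP3 in clone 1 was 0.30 (adjusted p = 0.000135). In the mean of both clones it was 0.38 (adjusted p = 4.11e-06, edgeR), and 0.17 with counts that disregard strand (adjusted p = 0.0148, edgeR). In the authors' deposited DESeq2 table, which takes both clones together, BNIP3 was at 0.18 and did not pass (adjusted p = 0.208). The source of the difference from 0.38 was not tested. The clone 2 call was lost with counts that disregard strand (0.03, adjusted p = 0.764), with DESeq2 (adjusted p = 0.0583), without the filter on low counts (adjusted p = 0.0639), and without WT replicate 1 or 2 or any 1 of the clone 2 libraries (highest adjusted p 0.173). Its relative BNIP3L rose by 0.17 in clone 1 (adjusted p = 3.7e-05) and did not pass in clone 2 (-0.0077, adjusted p = 0.896).

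CA9 (ENSG00000107159, chromosome 9, 35673928 to 35681159, plus strand), a carbonic anhydrase and classical hypoxia marker, was barely detected. It was at 0.157, 0.171 and 0.185 CPM in WT, at 0.293, 0.590 and 0.675 CPM in clone 1, and at 0.388, 0.667 and 0.351 CPM in clone 2, which came to 19, 49 and 56 counts per group. All knockout libraries were above WT. CA9 rose by 1.61 in clone 1 (SE 0.461, adjusted p = 0.0047) and by 1.43 in clone 2 (SE 0.454, adjusted p = 0.0131). It did not pass the filter when counts disregarded strand, where its antisense neighbour ARHGEF39 covers 35.7% of its exonic bases, and the clone 2 call was lost without KO clone 2 replicate 2 (adjusted p = 0.115). CA12 had 8, 6 and 3 counts in the 3 groups.

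The remaining HIF targets passed in 1 clone, in opposite directions or in neither clone. BHLHE40, a transcriptional repressor of the clock family, fell by 0.20 in clone 1 (adjusted p = 1.71e-05) and rose by 0.12 in clone 2 (adjusted p = 0.00899), from 89.5 ± 3.91 CPM to 77.7 ± 0.816 and 97.1 ± 1.28, and the clone 2 call was lost without WT replicate 2 (adjusted p = 0.0901). ADM, the vasodilator adrenomedullin, rose by 0.30 in clone 1 (adjusted p = 0.00973), a call lost without KO clone 1 replicate 2 (0.17, adjusted p = 0.208), and did not pass in clone 2 (-0.09, adjusted p = 0.554). MXI1, a MYC antagonist, was at 0.05 in clone 1 (adjusted p = 0.694) and fell by 0.22 in clone 2 (adjusted p = 0.0325), a call lost without WT replicate 2 or 3 or KO clone 2 replicate 2 (highest adjusted p 0.221). The histone demethylase gene KDM3A passed in neither clone (-0.05 and 0.06). ANKRD37 (0.12 and 0.28) and P4HA2 (-0.84 and -0.53), both under 1 CPM in every group mean, passed in neither clone.

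The promoters of 6 members are shown because they carry the pattern described above, with EPAS1 the largest fall, PFKFB4 the largest rise among members above 1 CPM, LDHA, PGK1 and ERO1A lower in both clones, and P4HA1 higher in both. The windows run from 250 bases before to 50 after a transcription start, from RefSeq on GRCh38.p14, and read 5′ to 3′ on the strand of the gene. Capitals mark the HIF core ACGTG or GCGTG, or its reverse complement CACGT or CACGC.
EPAS1 (chr2:46297157-46297456, plus strand): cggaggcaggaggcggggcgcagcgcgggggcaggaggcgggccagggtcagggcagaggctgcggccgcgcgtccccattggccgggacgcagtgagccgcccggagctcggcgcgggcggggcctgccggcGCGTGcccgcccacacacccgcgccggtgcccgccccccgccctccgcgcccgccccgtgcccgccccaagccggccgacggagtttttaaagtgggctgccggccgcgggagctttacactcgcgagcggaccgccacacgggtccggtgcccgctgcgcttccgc
PFKFB4 (chr3:48556754-48557053, minus strand): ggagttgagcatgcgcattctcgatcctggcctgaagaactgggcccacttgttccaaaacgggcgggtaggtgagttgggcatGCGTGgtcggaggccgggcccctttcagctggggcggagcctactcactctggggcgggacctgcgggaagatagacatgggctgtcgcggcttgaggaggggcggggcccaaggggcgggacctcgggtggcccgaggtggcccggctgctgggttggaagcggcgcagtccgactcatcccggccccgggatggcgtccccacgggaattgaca
LDHA (chr11:18394313-18394612, plus strand): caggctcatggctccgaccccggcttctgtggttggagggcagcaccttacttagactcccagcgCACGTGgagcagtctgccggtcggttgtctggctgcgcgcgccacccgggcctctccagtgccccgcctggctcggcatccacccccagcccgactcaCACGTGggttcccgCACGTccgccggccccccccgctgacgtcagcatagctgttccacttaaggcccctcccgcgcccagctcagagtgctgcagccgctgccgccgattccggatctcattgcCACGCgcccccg
PGK1 (chrX:78103998-78104297, plus strand): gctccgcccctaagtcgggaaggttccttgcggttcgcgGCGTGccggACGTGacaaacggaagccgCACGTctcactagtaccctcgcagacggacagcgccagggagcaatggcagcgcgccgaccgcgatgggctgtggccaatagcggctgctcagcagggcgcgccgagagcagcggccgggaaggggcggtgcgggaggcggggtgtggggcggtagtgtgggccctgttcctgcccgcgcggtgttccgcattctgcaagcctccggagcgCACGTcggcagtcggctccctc
ERO1A (chr14:52695509-52695808, minus strand): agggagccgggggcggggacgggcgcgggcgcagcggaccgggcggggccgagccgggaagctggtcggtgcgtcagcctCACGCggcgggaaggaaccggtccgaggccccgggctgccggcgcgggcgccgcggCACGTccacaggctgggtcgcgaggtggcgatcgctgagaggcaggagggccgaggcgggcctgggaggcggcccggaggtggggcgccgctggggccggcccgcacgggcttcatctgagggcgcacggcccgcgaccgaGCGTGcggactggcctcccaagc
P4HA1 (chr10:73096817-73097116, minus strand): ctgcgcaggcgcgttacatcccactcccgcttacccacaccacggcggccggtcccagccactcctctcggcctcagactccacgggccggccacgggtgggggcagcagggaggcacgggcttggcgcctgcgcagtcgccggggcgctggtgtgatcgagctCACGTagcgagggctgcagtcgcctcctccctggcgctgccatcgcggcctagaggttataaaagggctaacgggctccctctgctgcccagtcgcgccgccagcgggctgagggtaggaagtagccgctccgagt

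The genes shown were chosen from both directions of change, so a link between the core and the direction was not tested. PGK1 holds 4 matches in the window, ERO1A 3 and P4HA1 1, and the LDHA window shown holds 6, counting both strands. The other LDHA window, not shown, holds 1. HK1, lower in both clones and not shown, has 7 windows, of which 5 hold no match and 2 hold 1 each, so the windows shown are not typical of all members in their number of matches. In LDHA 2 of the sites read CACGTG, which counts once on each strand and is also the E-box recognised by MYC and other factors. The EPAS1 and PFKFB4 windows hold 1 match each, of the form GCGTG. No RefSeq window was matched for VEGFA, SLC2A3, PFKFB2, VHL, BNIP3L or NDRG1. The other 38 of the 44 members had 64 windows in all. Of these, 44 (68.8%) held ACGTG or GCGTG on either strand, against 48.4% of all 35116 promoter windows of that length and 59.3% of the windows of tested genes. By role, the share was 63.2% of 38 windows for transporters and enzymes and 85.7% of 14 for the other HIF targets. Members with several starts have several overlapping windows. The members' windows had a mean GC content of 65.3%, against 57.5% over all windows and 62.7% in the windows of tested genes. A match describes letters in a window and not a bound site.

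Ratios between related genes within a library, which do not depend on how libraries are scaled, were compared for 12 pairs. They are ratios of CPM without correction for exon length, so they compare the groups and not the levels of the paired genes. EPAS1 relative to HIF1A went from 0.278 ± 0.0170 among WT libraries to 0.0953 ± 0.0008 for clone 1 and 0.102 ± 0.0051 for clone 2, a log2 difference of -1.50 between the 6 knockout and 3 WT libraries. HK2 relative to HK1 went from 1.01 ± 0.0175 to 1.75 ± 0.0877 and 1.5 ± 0.0584, a log2 difference of 0.68. PFKP relative to PFKL went from 1.20 ± 0.0599 to 1.48 ± 0.0336 and 1.43 ± 0.0411. PFKFB4 relative to PFKFB3 went from 0.148 ± 0.0023 to 0.333 ± 0.0073 and 0.206 ± 0.0153, whereas PFKFB2 relative to PFKFB3 went from 0.0846 to 0.0613 and 0.0676. BNIP3L relative to BNIP3 went from 11.7 ± 0.232 to 8.95 ± 0.860 and 10.2 ± 0.593.

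In these 6 pairs all 6 knockout libraries lay on one side of WT, which gives the smallest p that 6 against 3 libraries allow, 0.0238 (exact two-sided permutation test), and 0.0476 when adjusted over the 12 pairs. With counts that disregard strand, BNIP3L over BNIP3 left that set and the smallest adjusted p was 0.0571, so none passed. The other 6 pairs did not pass, and their adjusted p lay between 0.0714 (PFKM over PFKL and SLC2A3 over SLC2A1) and 0.69 (ALDOC over ALDOA and ENO2 over ENO1). For ENO2 over ENO1, clone 1 lay 0.50 above WT and clone 2 lay 0.26 below it on the log2 scale.

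**Figure D4:**
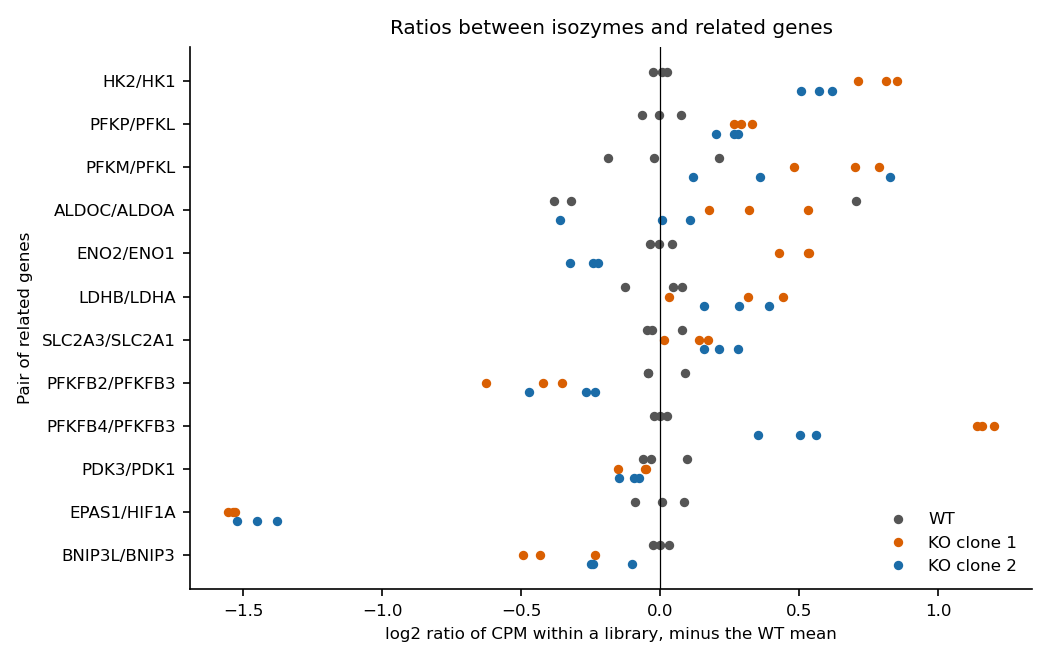
Log2 ratio of 2 related genes within each library, minus the WT mean (x axis), for 12 pairs (y axis); each point is a library, with WT in grey, KO clone 1 in orange and KO clone 2 in blue. EPAS1/HIF1A lies lowest, at -1.54 and -1.45 on average in the clones, HK2/HK1 and PFKFB4/PFKFB3 lie highest, and ENO2/ENO1 falls on opposite sides of WT in the clones.

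Further genes of the same pathways were taken from 6 lists that hold 97 genes, of which 77 were tested. In the mean of both clones, 17 were higher and 32 lower at the adjusted p, beside 16.4% and 18.9% of all genes. Of them, 3 higher and 5 lower passed the fold minimum, beside 2.00% and 4.53% of all genes. Among 13 further glycolysis and glucose entry genes tested, 2 were higher and 4 lower. The fructose transporter gene SLC2A5 fell by 3.85, from 1.59 ± 0.244 CPM to 0.0883 and 0.131 CPM. The insulin-responsive glucose transporter gene SLC2A4 differed between the clones, with log2 fold changes of 0.33 (adjusted p = 0.467) and 2.25 (adjusted p = 9e-10), and was at 2.14 CPM in clone 2. Of 10 glycogen genes, 1 was higher and 8 lower, and the glycogen phosphorylase PYGL fell by 1.90, from 29.3 ± 0.636 CPM to 5.61 ± 0.690 and 10.9 ± 0.534 (adjusted p = 1.24e-26, edgeR).

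Pyruvate entry into mitochondria and the pentose phosphate pathway changed by small amounts. In the mean of both clones, where 16.4% of all genes were higher and 18.9% lower, 4 of 11 pyruvate entry genes were higher and 4 lower. PDHA1 and PDHX, of the pyruvate dehydrogenase complex, rose by 0.22 and 0.16, and its activating phosphatase PDP1 fell by 0.24. In the pentose phosphate pathway, 0 of 7 genes were higher and 4 lower, and the transaldolase gene TALDO1 fell by 0.16. By the same measure, 4 of 9 other HIF regulators were higher and 1 lower, and the coactivators EP300 and CREBBP rose by 0.18 and 0.16.

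Of 27 further genes known to be induced by hypoxia, 6 were higher and 11 lower in the mean of both clones, beside 16.4% and 18.9% of all genes. The nuclear receptor gene RORA fell by 1.86, from 21.1 ± 0.888 CPM to 5.51 ± 0.570 and 6.16 ± 0.0435 (-1.18 when counts disregarded strand). Haem oxygenase HMOX1 rose by 1.09, from 11.7 ± 0.205 CPM to 25.5 ± 0.638 and 24.2 ± 1.39 (adjusted p = 2.99e-19, edgeR). The chemokine receptor gene CXCR4 fell by 2.91 and the secreted glycoprotein gene STC2 by 2.38, from 0.705 and 1.07 CPM in WT. LOX, a collagen crosslinking oxidase, rose by 2.47 from 0.152 CPM, and by 0.62 when counts disregarded strand.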

How the data were processed

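RNA-seq libraries of total RNA were read as paired ends of 150 bases. Raw counts per gene were deposited by the authors, who aligned to GRCh38 by 2-pass STAR, per the series text; versions and annotation are not given in the sources used here. Pairs that map to several places are listed apart per the file headers and are in no gene's count, so genes with processed pseudogenes, such as GAPDH, ENO1, LDHA and PGK1, are uncertain in level. The counting for one strand was used, which held 92.0% to 92.3% of stranded counts. The authors' deposited DESeq2 table gave symbols, log2 fold changes (log2) and adjusted p-values (p-value); its log2 fold changes equal statistic times standard error and are thus not shrunken. Its 18 per-sample columns were not used. Pairs assigned to genes were 25.9% to 29.6% of all pairs, and the rest stayed out of library totals; a count of 3 was 0.0695 to 0.107 CPM, for counting error only.

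Counts were fitted in R 4.3.3 with edgeR 4.0.16 (filterByExpr by group, 20655 genes; TMM; robust quasi-likelihood F test; 1 coefficient per group; all 9 libraries) and adjusted by Benjamini-Hochberg over all genes; all adjusted p-values of fold changes are from this fit. SE is the absolute log2 fold change over the square root of F. CPM are counts scaled to a common TMM-adjusted library total. Exon lengths, overlaps and positions came from GENCODE 44, where 60463 of 60605 identifiers were found. The fit was checked on simulated data. Ratios used SciPy 1.17.1. The members, lists and tests were chosen with earlier results of these data known. Values in every library are given for members passing in both clones in 1 direction with a mean log2 fold change of at least 0.4 in absolute value, for those passing between the clones with as large a difference, and for the most abundant of each role; other genes are given by group values. In the 6 further lists, genes past the fold minimum are named, or up to 3 passing in both clones where none is; 1 gene that this rule names is not reported here. Alternatives were counts disregarding strand, DESeq2 1.42.0 and its size factors, no filter, a replicate block, a 2-group fit and leaving out each library.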

Additional observations from a re-analysis of the deposited data

Results flagged for a closer look

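Levels differed between the clones, by the test of clone 2 against clone 1 with edgeR at the adjusted p, for 27 of the 42 tested members, where 25.9% of all genes and 46.1% of genes at 50 CPM or more passed. The values below are log2 differences, clone 2 minus clone 1. Among transporters and enzymes, SLC2A1 differed by 0.28, SLC2A3 by 0.38, HK1 by 0.23, PFKL by 0.17, PFKP by 0.13, TPI1 by 0.26 and GAPDH by 0.10. PGK1 differed by 0.18, PGAM1 by 0.19, ENO1 by 0.21 and LDHA by 0.19, all higher in clone 2, and GPI at -0.17 and ENO2 at -0.56 were lower there. PFKFB4 was the one regulator of flux, at -0.75. Among the HIF factors, HIF1A was at 0.11, EPAS1 at 0.21, EGLN1 at 0.39 and ARNT at -0.13. Among other HIF targets, KDM3A was at 0.12 and BHLHE40 at 0.32. ADM was at -0.38, BNIP3 at -0.38, BNIP3L at -0.18, NDRG1 at -0.13, P4HA1 at -0.26, MXI1 at -0.27 and ERO1A at -0.11. Each clone is 1 line, so these differences are between these lines. Of these calls, 7 were lost when 1 library was left out. ADM lost its call without KO clone 1 replicate 2, MXI1 without KO clone 2 replicate 2, and EPAS1 without KO clone 1 replicate 2 or KO clone 2 replicate 3. KDM3A lost it without replicate 2 of either clone, and NDRG1 without those or KO clone 2 replicate 3. ARNT lost it without replicate 1 or 3 of clone 1 or replicate 2 or 3 of clone 2, and GAPDH without any clone library other than KO clone 1 replicate 1.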

How the results depend on the processing

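The counts of members passing the adjusted p stayed within 1.5 times under every alternative run. Leaving out each library in turn gave 28 to 29 in clone 1, 20 to 25 in clone 2, 23 to 27 in the mean and 22 to 28 between the clones; without KO clone 1 replicate 1 they were 28, 25, 25 and 26. The 2-group fit gave 18 in the mean. With counts that disregard strand, members past the fold minimum were 1 in clone 2 and 1 in the mean, since CA9 was then not tested, and without each library in turn they were 1 to 3 in clone 2. Of the ratios, 0 of 12 passed with counts that disregard strand and 0 to 0 without each library in turn, where the adjusted p was at least 0.0612; with fewer libraries the smallest p is larger by construction. ENO2 in the mean turned to 0.0198 in the 2-group fit and ranged from -0.0342 to 0.0383 without each library. Clone 2 against clone 1 ranged from -0.0200 to 0.0429 for PDK1 and from -0.51 to 0.0479 for CA9, and the ALDOC over ALDOA ratio from -0.0624 to 0.48; none of these passed. GAPDH between the clones, at the edge of the threshold, was lost with counts that disregard strand and with no filter. Replicate numbers did not pair the libraries: over 9 same-numbered pairs, deviations from the group means correlated at -0.08 to 0.14. With a replicate block, 29, 24, 27 and 27 members passed in the 4 comparisons, and the mean ALDOC over ALDOA difference stayed at 0.13. Genes under about 1 CPM (CA9, ANKRD37, P4HA2, CA12, EGLN3) are limited by depth.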
